A study of Mus musculus with 10 samples.

Results

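The genes described here are 10 members of the LIF/Stat3 pathway, given as a list of names that was drawn up with earlier results of these data known, and they were found by symbol among the 30677 Ensembl genes of the count table. They comprise the receptor chains Lifr and Il6st, the kinase Jak1, the transcription factor Stat3, the feedback inhibitor Socs3, and the target genes Pim1, Pim3, Bcl3, Junb and Gbx2. All 10 had enough counts to be tested, with 546 (Gbx2) to 11487 (Pim3) counts per library.

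Leukemia inhibitory factor (LIF) is the cytokine that keeps mouse embryonic stem (ES) cells undifferentiated in serum culture. It joins Lifr and Il6st (gp130) into 1 receptor, Jak kinases bound to the receptor phosphorylate Stat3, and phosphorylated Stat3 dimers enter the nucleus and bind DNA at palindromic sites with the core TTCNNNGAA. Socs3, which Stat3 switches on, binds gp130 and Jak and damps the signal, so that its mRNA is a common readout of the pathway.

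The cells were TNGA, a mouse ES cell line in which a single Nanog allele carries a green fluorescent protein reporter. All cultures were kept in serum and LIF, and all received the same volume of the solvent dimethyl sulfoxide (DMSO). The 3 control cultures received the solvent alone for 48 h, and the 3 treated cultures received 100 μM MB-3, a small-molecule inhibitor of the histone acetyltransferase Kat2a (Gcn5), for 48 h. In both groups the polyA RNA-seq libraries carry the letters A, B and C, and H3K9ac, an acetylation of histone H3 found at active promoters, was mapped as 1 peak list per treatment. All values come from 1 cell line with LIF present in both groups, so the signal without LIF was not measured, and because the labels do not say how far the 3 cultures of a group were separate, p-values measure the spread between these samples.

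The DMSO libraries held 48144367 (A), 51137896 (B) and 46863700 (C) counts, and the MB-3 libraries 49334434 (A), 44985772 (B) and 42270312 (C). Levels are given in CPM, the counts of a gene relative to the normalized library size, and at this depth 1 CPM corresponds to 42.9 to 50.2 reads. The ES cell markers were abundant in every library. Pou5f1, a core pluripotency factor and the most abundant of the 6 markers examined in the mean over all 6 libraries, stood at 650 to 713 CPM in DMSO and 652 to 716 CPM in MB-3, and none of the 6 (Pou5f1, Nanog, Sox2, Zfp42, Esrrb and Tdgf1) was called by edgeR's quasi-likelihood test in either fit used below, which called 0.205% and 7.12% of all tested genes (0 of the 6 also at an unadjusted p under 0.05 in the main fit).

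Most differences within the pathway were small. Socs3 fell by 19.8%, and it was the 1 member of 10 that passed an adjusted p of 0.05 in the fit with treatment as the only term. Across all 20027 genes tested, that fit called 41 genes, or 0.205%, of which 21 were lower, or 0.105%. DESeq2 called the same member and 1.11% of all genes it tested, and limma-voom called no member, with 4 at an unadjusted p under 0.05, and 0.0899% of all genes. At an unadjusted p under 0.05 stood 4 members (Stat3, Socs3, Pim3 and Gbx2) and 10.9% of all genes. A second fit, in which the replicate letter entered as a block, called 4 of the 10 members: Socs3 and Pim3 were lower, and Gbx2 and Lifr were higher. In that fit 1425 genes passed, or 7.12% of all tested, with 3.9% lower and 3.22% higher. The letters did not meet the criterion set for taking same-letter cultures as pairs, so the first fit is the main one, and the calls of the second are given beside it. The median log2 fold change of the 10 members was -0.10, with a range from -0.32 to 0.41, against a median of 0.0 over all genes tested. The median size of the change regardless of sign was 0.14 for the members and 0.10 for all genes, and the median standard error was 0.07 and 0.10.

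**Figure D1:**
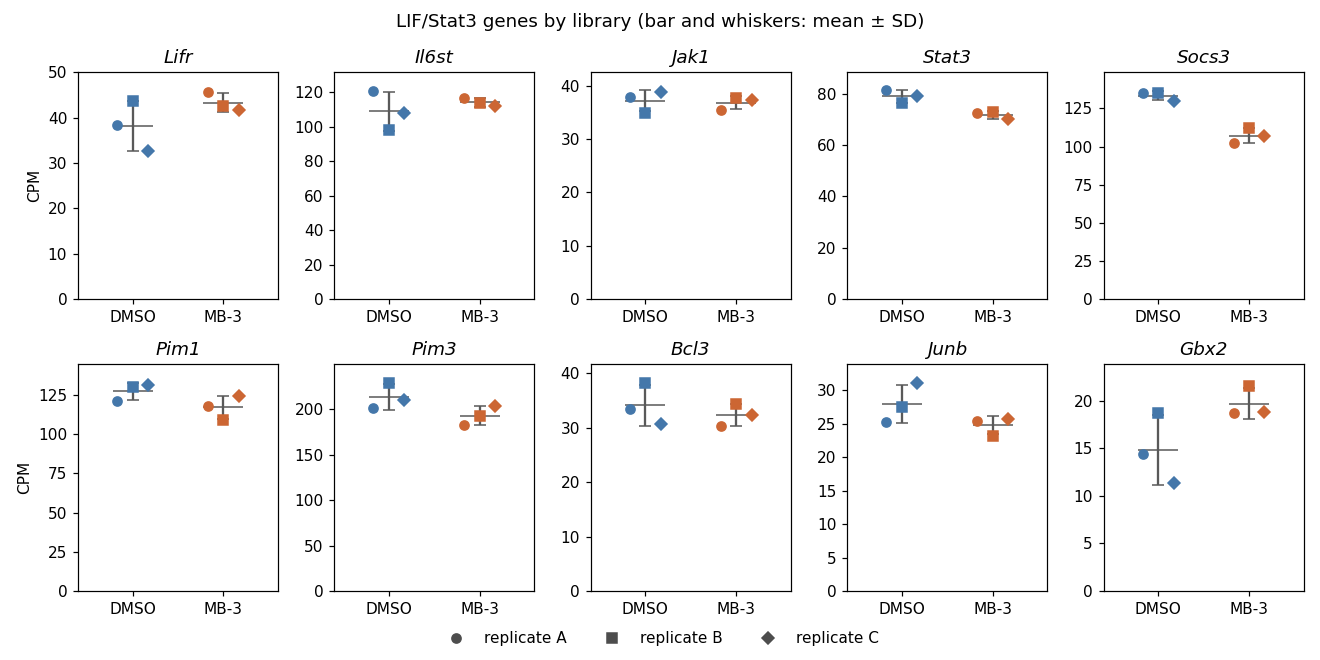
Normalized level (CPM, axis from 0) of each of the 10 genes in the 3 DMSO and 3 MB-3 libraries, with 1 point per library and its shape giving the replicate letter. The bar and whiskers are the mean and SD of 3 libraries. The groups stand apart for Socs3 and Stat3 and touch for Gbx2, where the highest DMSO and the lowest MB-3 value both round to 18.7 CPM.

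Socs3 (ENSMUSG00000053113; GRCm38 chr11:117966079-117970047, minus strand) encodes the SH2-domain protein that binds the activated receptor and blocks Jak. It stood at 135, 135 and 130 CPM in DMSO A, B and C and at 102, 112 and 107 CPM in MB-3 A, B and C. Every MB-3 library lay below every DMSO library, and the gap between the groups was wider than the spread within either. The means were 134 ± 2.79 CPM (SD, n = 3) in DMSO and 107 ± 4.97 CPM (SD, n = 3) in MB-3, a log2 fold change of -0.32 ± 0.06 (SE, adjusted p = 0.0485, edgeR quasi-likelihood test). With the letter as block the change was -0.32 ± 0.05 (adjusted p = 1.23e-05), and DESeq2 gave an adjusted p of 0.000108. The call of the main fit stood close to the threshold, and limma-voom gave an adjusted p of 0.0624. With 1 library left out, the adjusted p of the main fit was 0.117 without DMSO A, 0.0133 without DMSO B and 0.12 without DMSO C. It was 0.329 without MB-3 A, 0.165 without MB-3 B and 0.0757 without MB-3 C, while the log2 fold change stayed between -0.35 and -0.28. The block call was kept without letter A (adjusted p = 0.000392), letter B (0.0005) and letter C (4.59e-08, edgeR).

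Socs3 was also the member whose promoter held a Stat motif. The motif TTCNNNGAA, which reads the same way on both strands, was searched in the 250 bases before each gene start. With RefSeq starts (GRCm38.p6), in which all 10 members had an entry, it was present for 1 of 10 members, and in 7.02% of all 32851 promoters. The stricter form TTCCNGGAA, a subset of the first, was present for 0 of 10 members and in 0.913% of all promoters. GENCODE M21 places the start of the protein-coding Socs3 transcript closer to the gene body. With GENCODE starts, a search added after the data were seen, the window held a TTCCNGGAA site for Socs3 and for no other member. The site was present in 0.957% of 41469 windows. Members were counted per gene, some with several starts, while the shares count single promoters or windows. The 2 sites are shown because Socs3 was the member called in the main fit. The motif is in capitals, the strand is that of the gene, and each stretch is 30 bases from GRCm38.
Socs3, site 61 bases before the GENCODE start, chr11:117969228-117969257: ggccgggcagTTCCAGGAAtcggggggcgg
Socs3, site 154 bases before the RefSeq start, chr11:117969501-117969530: gaaaccagccTTCTTAGAAgggaggggggg
Both matches are descriptions of the sequence, and binding of Stat3 was not measured in these samples. The absence of these letters from the other 9 windows says nothing of sites that lie elsewhere.

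Both receptor chains had a positive log2 fold change, and neither was called in the main fit. Lifr (ENSMUSG00000054263; chr15:7090614-7197489, plus strand), the chain that binds LIF, stood at 38.3, 43.6 and 32.6 CPM in DMSO A, B and C and at 45.7, 42.6 and 41.6 CPM in MB-3. The MB-3 values lay close together, DMSO A and C were below them, with C lowest, and DMSO B was inside their range. Its log2 fold change was 0.18 ± 0.09 (SE, adjusted p = 0.488), and 0.19 ± 0.06 with the letter as block (adjusted p = 0.0495, edgeR), where it was called just inside the threshold. That call was lost without letter A (0.15, adjusted p = 0.276) and without letter C (0.11, adjusted p = 0.384), and in the main fit the value was 0.08 without DMSO C and 0.29 without DMSO B. Within letters the log2 difference was 0.26 (A), -0.03 (B) and 0.35 (C). Il6st (ENSMUSG00000021756; chr13:112464070-112510086, plus strand), the gp130 chain shared by the receptors of the IL-6 family, stood at 121, 98.1 and 108 CPM in DMSO and at 117, 114 and 112 CPM in MB-3. Its MB-3 values lay within the DMSO range, and the log2 fold change was 0.07 ± 0.07 (adjusted p = 0.779, edgeR). The sign of Il6st turned without DMSO B, at -0.01, and the value was 0.15 without DMSO A.

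Among the signal transducers, Jak1 differed least of the 10 members. Jak1 (ENSMUSG00000028530; chr4:101152367-101265282, minus strand), the kinase bound to gp130, stood at 37.8, 34.9 and 38.8 CPM in DMSO and at 35.4, 37.7 and 37.3 CPM in MB-3, with the MB-3 values inside the DMSO range. Its log2 fold change was -0.01 ± 0.07 (SE, adjusted p = 0.955, edgeR). Stat3 (ENSMUSG00000004040; chr11:100885098-100939540, minus strand), the factor that carries the signal to DNA, stood at 81.5, 76.6 and 79.1 CPM in DMSO and at 72.4, 73 and 70.2 CPM in MB-3. The groups did not overlap, and each MB-3 library was below the DMSO library of its letter. The difference was -0.14 ± 0.05 on the log2 scale, which gave an unadjusted p of 0.0264 and an adjusted p of 0.375, and with the letter as block the adjusted p was 0.0793 (edgeR), so Stat3 was called in neither fit. It kept a negative sign with any 1 library left out, from -0.16 to -0.12.

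**Figure D2:**
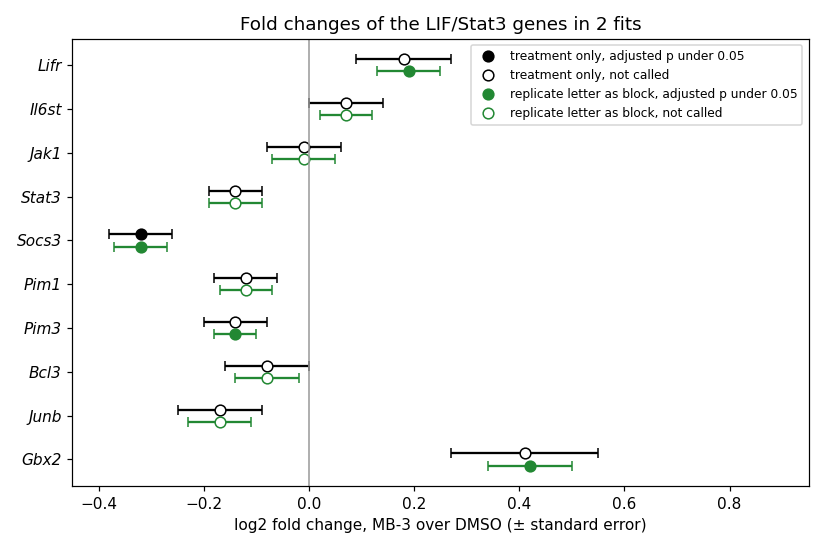
Log2 fold change of MB-3 over DMSO for each of the 10 genes, with the standard error as whiskers, in the treatment-only fit (black) and with the replicate letter as block (green). Filled points have an adjusted p under 0.05. Socs3 is filled in both fits, and Lifr, Pim3 and Gbx2 in the block fit alone, with nearly the same fold change and shorter whiskers there.

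None of the 5 target genes was called in the main fit, which called 0.205% of all genes. In that fit Gbx2 had a positive log2 fold change and the others a negative one, and a difference among them was not tested. The kinases Pim1 and Pim3 are serine/threonine kinases that promote survival and are induced by Stat3. Pim3 (ENSMUSG00000035828; chr15:88862186-88865726, plus strand), the most abundant member, stood at 201, 229 and 210 CPM in DMSO and at 183, 193 and 203 CPM in MB-3. MB-3 C lay above DMSO A, so the groups overlapped, although each MB-3 library was below its letter's DMSO library. Its log2 fold change was -0.14 ± 0.06 (SE, adjusted p = 0.426), and -0.14 ± 0.04 with the letter as block (adjusted p = 0.0443, edgeR). The block call was lost without letter A (adjusted p = 0.131) and without letter B (-0.10, adjusted p = 0.375), and the main fit gave -0.09 without DMSO B. Pim1 (ENSMUSG00000024014; chr17:29490753-29496112, plus strand) stood at 121, 130 and 131 CPM in DMSO and at 118, 109 and 124 CPM in MB-3. Its groups overlapped too, again with each MB-3 library below its letter's DMSO library, and it was called in neither fit, with a log2 fold change of -0.12 ± 0.06 and adjusted p-values of 0.502 and 0.122 (edgeR), and -0.07 without MB-3 B.

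Bcl3 (ENSMUSG00000053175; chr7:19808462-19822770, minus strand), an IκB-family cofactor of NF-κB, stood at 33.4, 38.2 and 30.7 CPM in DMSO and at 30.2, 34.3 and 32.3 CPM in MB-3. The groups overlapped, and the log2 fold change of -0.08 ± 0.08 was not called (adjusted p = 0.768, edgeR). The sign of Bcl3 turned without DMSO B, at 0.01, and the value was -0.03 without MB-3 A. Junb (ENSMUSG00000052837; chr8:84974484-84978718, minus strand), an AP-1 transcription factor and immediate early gene, stood at 25.3, 27.4 and 31 CPM in DMSO and at 25.4, 23.2 and 25.7 CPM in MB-3. The A libraries of both groups were level, and the difference of -0.17 ± 0.08 was called in neither fit (adjusted p = 0.463, and 0.0876 with the letter as block, edgeR). The main fit gave -0.09 for Junb without DMSO C, and the block fit called it without letter A (-0.26, adjusted p = 0.0303).

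Gbx2, a homeobox factor that can hold ES cells undifferentiated downstream of Stat3, had the opposite sign to the other 4 targets in the main fit with all libraries. Gbx2 (ENSMUSG00000034486; chr1:89927956-89931179, minus strand) stood at 14.4, 18.7 and 11.4 CPM in DMSO A, B and C and at 18.7, 21.6 and 18.8 CPM in MB-3. DMSO C was lowest, DMSO B reached the lowest MB-3 library, and in both groups B was the highest library. The means were 14.8 ± 3.64 CPM (SD, n = 3) in DMSO and 19.7 ± 1.66 CPM (SD, n = 3) in MB-3. The log2 fold change, the largest of the 10 members in size, was 0.41 ± 0.14 (SE, adjusted p = 0.283) in the main fit and 0.42 ± 0.08 with the letter as block (adjusted p = 0.000324, edgeR). DESeq2 with treatment alone gave an adjusted p of 0.123. Without DMSO B the main fit gave 0.61 (adjusted p = 0.005, edgeR). With any other library left out Gbx2 was not called, and the value was lowest without DMSO C, at 0.25 (adjusted p = 0.702). The block call was kept with each letter left out, at 0.45 without A, 0.54 without B and 0.29 without C.

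In all, the DMSO and MB-3 libraries of 3 members did not overlap: Socs3 and Stat3 lay lower under MB-3 and Gbx2 higher. Over all tested genes the groups did not overlap for 15.6%, with 7.37% lower and 8.23% higher. Socs3, Stat3, Pim1 and Pim3 were lower in MB-3 in all 3 letters, which held for 20.3% of all tested genes, and Gbx2 was higher in all 3, which held for another 20.3%. The spread between libraries was larger in DMSO than in MB-3 for 8 members, the exceptions being Socs3 and Pim1, and for 57.1% of all tested genes. Lifr had an SD of log2 CPM of 0.21 among DMSO libraries and 0.0714 among MB-3 libraries, Il6st one of 0.154 and 0.0339, and Gbx2 one of 0.352 and 0.118.

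Several members share exon sequence with a gene on the other strand, and whether reads were counted by strand is not stated in the sources used here. The shared stretch was 946 bp between Gbx2 and D130058E05Rik, 488 bp between Pim1 and Gm26885, 173 bp between Junb and Prdx2, 161 bp between Bcl3 and Gm16175, 72 bp between Stat3 and Stat5a, and 4 bp between Jak1 and Raver2. The levels of Gbx2, Pim1, Junb, Bcl3 and Stat3 are therefore less certain than those of the other 5 members. D130058E05Rik was at 2.75 to 3.1 CPM in all 6 libraries, with a log2 fold change of 0.01 ± 0.14, Gm26885 and Gm16175 were at 0.0623 to 0.301 CPM, and Prdx2 was at 174 to 206 CPM. Socs3, Pim3, Lifr and Il6st share no exon with another annotated gene.

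Per kilobase of exon, the members covered a wide range of mRNA levels. In DMSO the order was Pim3 with 87.8 ± 5.9 CPM per kb, Socs3 with 46.2 ± 0.965, Pim1 with 37.8 ± 1.68, Bcl3 with 13.8 ± 1.54, Junb with 12.1 ± 1.25, Il6st with 9.85 ± 1.06, Stat3 with 8.3 ± 0.256, Gbx2 with 6.82 ± 1.67, Jak1 with 5.14 ± 0.281 and Lifr with 3.54 ± 0.513 CPM per kb (SD, n = 3). The DMSO values of neighbors in this order overlapped for Bcl3 and Junb, for Stat3 and Gbx2, and for Gbx2 and Jak1. The 5 highest were thus the feedback gene and 4 of the targets, and the chain that binds LIF was lowest. In MB-3 Socs3, at 37 ± 1.72 CPM per kb, stood near Pim1, at 34.8 ± 2.29, and Gbx2, at 9.04 ± 0.761, above Stat3, at 7.54 ± 0.154 CPM per kb.

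The wider pathway was read from a list of ligands, receptors, kinases and adaptors, STAT factors, inhibitors and targets of the same pathway. Of 58 further genes, 57 were in the table and 55 were tested; Il6 was not analysed here, and Cntf and Osmr were too low to test. The main fit called 0 of the 55 (edgeR, 8 at an unadjusted p under 0.05, against 10.9% of all genes; DESeq2 also called 0), against 0.205% of all genes. With the letter as block 6 of 55 passed, against 7.12% of all genes: Gab1 and Pim2 were higher, and Stat5b, Tfcp2l1, Fos and Egr1 were lower. The median log2 fold change of the 55 genes was -0.06.

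**Figure D3:**
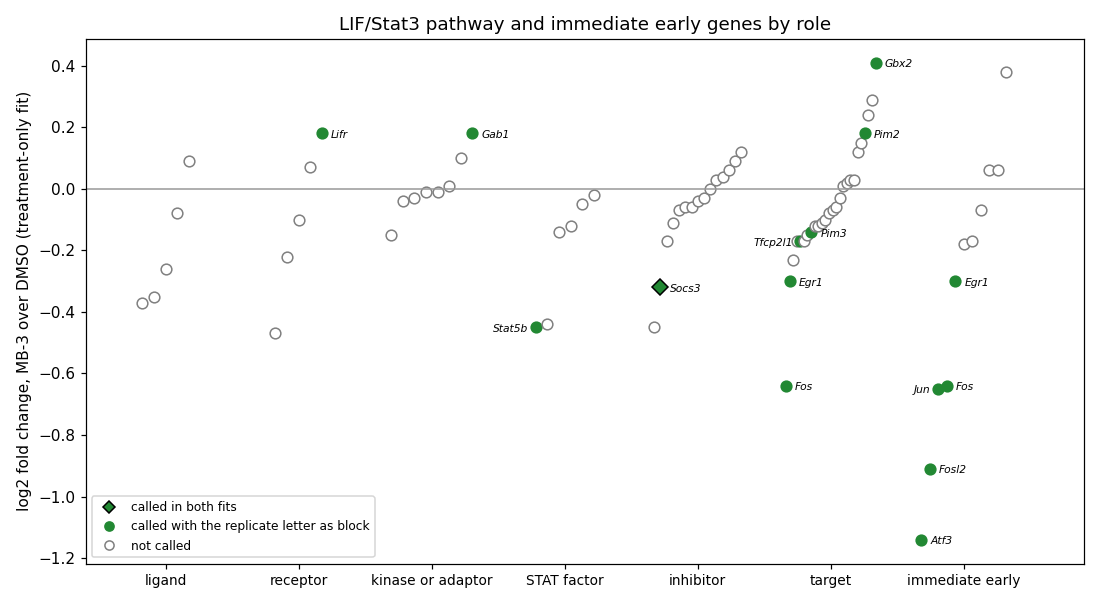
Log2 fold change of MB-3 over DMSO (treatment-only fit) for each tested gene of the LIF/Stat3 pathway, members included, and for immediate early genes, arranged by role and within a role by value, 1 point per gene. Genes in 2 roles appear in both. Socs3 alone is called in both fits (diamond), green circles are called with the replicate letter as block, and all 6 STAT factors plotted lie below 0.

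The ligands were scarce in these cells, to which LIF was supplied. Lif, the highest in CPM of the 6 ligands in the table, stood at 5.85, 4.62 and 7.55 CPM in DMSO. In MB-3 it stood at 4.82, 4.28 and 5.94 CPM. Per kilobase of exon, Lif was at 1.38 CPM in DMSO and 1.15 in MB-3, and the ligand Ctf1 at 1.22 and 1.3. The log2 fold change of Lif was -0.26 ± 0.17 (SE, adjusted p = 0.61, edgeR), which was -0.06 without DMSO C and -0.42 without DMSO B. The other ligands stood below 3 CPM in every library. None of the 5 tested ligands was called in either fit (edgeR, 0 at an unadjusted p under 0.05 in the main fit), where the main fit called 0.205% and the block fit 7.12% of all genes. Of the 5 tested receptor chains, the main fit called 0, with 0 at an unadjusted p under 0.05, and the block fit called Lifr alone, against 3.22% of all genes called higher, and the other 3 beside Lifr and Il6st were below 7 CPM in every library.

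Among 8 kinases and adaptors, the main fit called 0 (edgeR, 1 at an unadjusted p under 0.05), against 0.205% of all genes, and the block fit called Gab1, against 3.22% of all genes called higher. Gab1, a docking protein that links gp130 and Shp2 to the Erk and Akt pathways, stood at 219, 226 and 197 CPM in DMSO and at 241, 239 and 246 CPM in MB-3. The 3 MB-3 values all exceeded the highest DMSO value. Gab1 had a log2 fold change of 0.18 ± 0.06 (SE, adjusted p = 0.288), and 0.18 ± 0.05 with the letter as block (adjusted p = 0.0119, edgeR), a call that was lost without letter C (0.11, adjusted p = 0.211). In the main fit it was 0.12 without DMSO C. Jak2, a second kinase of the receptor, had a log2 fold change of -0.15 ± 0.13 at 6.12 to 8.68 CPM and was not called (adjusted p = 0.717, edgeR), with -0.04 without DMSO C and -0.25 without DMSO B.

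The 6 STAT factors examined, Stat3 included, all had a negative log2 fold change, from -0.45 to -0.02, while over all tested genes 10073 of 20027 had one. The sign turned for Stat2 without DMSO A (0.02 in the main fit) and for Stat6 without letter C (0.02 in the block fit). The main fit called 0 of 6 (edgeR, 3 at an unadjusted p under 0.05, against 10.9% of all genes; DESeq2 also called 0), and the block fit 1, against 7.12% of all genes. That gene was Stat5b, which acts mainly downstream of other cytokine and growth hormone receptors, at 8.16, 5.52 and 8.22 CPM in DMSO and at 5.48, 4.8 and 5.76 CPM in MB-3. DMSO B lay inside the MB-3 range while DMSO A and C were higher. The log2 fold change of Stat5b was -0.45 ± 0.15 (SE, adjusted p = 0.283), -0.44 ± 0.10 with the letter as block (adjusted p = 0.00574, edgeR), and in the main fit -0.61 without DMSO B (adjusted p = 0.00945), -0.36 without DMSO A (0.413) and -0.35 without DMSO C (0.7). The block call was lost without letter A (-0.37, adjusted p = 0.0962).

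Of 15 inhibitors, which include SOCS and PIAS proteins and phosphatases, Socs3 was the 1 gene called, in both fits, against 0.205% of all genes in the main fit and 7.12% in the block fit. The median log2 fold change of the 15 was -0.04. Socs2, which restrains growth hormone signaling, stood at 129 to 162 CPM. Per kilobase of exon it was at 15 CPM in DMSO, against 46.2 for Socs3. Its log2 fold change was 0.12 ± 0.07 (SE, adjusted p = 0.57, edgeR), and it was higher in MB-3 in all 3 letters. The value was 0.05 without DMSO C, 0.08 without MB-3 B and 0.18 without DMSO B. Socs2 was named after its values were seen.

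Beyond the 5 targets above, 21 targets were tested. Their log2 fold changes had a median of -0.06, and the block fit called 4, against 7.12% of all genes, with 3 lower (3.9% of all genes) and 1 higher (3.22%). The naive pluripotency factors induced by LIF were among the best measured. Tfcp2l1 stood at 283, 237 and 251 CPM in DMSO and at 234, 216 and 234 CPM in MB-3, a log2 fold change of -0.17 ± 0.07 (SE, adjusted p = 0.383) that was called with the letter as block (-0.17 ± 0.04, adjusted p = 0.0142, edgeR). The block call was lost without letter A (-0.12, adjusted p = 0.301) and without letter B (-0.19, adjusted p = 0.0531), and the main fit gave -0.10 without DMSO A. Every MB-3 library lay below every DMSO library, with 234 CPM as the highest MB-3 and 237 CPM as the lowest DMSO value. Klf4 stood at 84.1, 84.1 and 76.7 CPM in DMSO and at 73.8, 73.5 and 74.1 CPM in MB-3. Its groups did not overlap either, but the difference of -0.15 ± 0.06 was called in neither fit (adjusted p = 0.369 and 0.0662, edgeR), though the block fit called it without letter C (-0.19, adjusted p = 0.0206). Klf5 had a log2 fold change of 0.01 ± 0.07 at 72.3 to 83.5 CPM, and Myc one of 0.15 ± 0.08 at 38.4 to 48.7 CPM, and neither was called in either fit (adjusted p = 0.963 and 0.539 in the main fit, edgeR). Myc was at 0.08 without DMSO A and 0.26 without DMSO B, and the block fit called it without letter B (0.24, adjusted p = 0.0329).

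Pim2, the third Pim kinase, differed in direction from Pim1 and Pim3. It stood at 94.7, 101 and 108 CPM in DMSO and at 110, 117 and 117 CPM in MB-3, so the groups did not overlap. Pim2 had a log2 fold change of 0.18 ± 0.06 (SE, adjusted p = 0.293), and 0.18 ± 0.05 with the letter as block (adjusted p = 0.0128, edgeR), a call that was lost without letter A (adjusted p = 0.13) and without letter B (adjusted p = 0.115). With the letter as block, Pim2 was thus called higher and Pim3 lower in the same libraries; a difference between the 2 genes was not tested.

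Fos and Egr1, which Erk and serum induce as well as LIF, belong to the immediate early genes, a class transcribed within minutes of a stimulus without new protein synthesis. Of 11 tested immediate early genes the main fit called 0 (edgeR, 5 at an unadjusted p under 0.05, against 10.9% of all genes; DESeq2 called Jun), and the block fit 5, all lower in MB-3, where 3.9% of all tested genes were called lower. Their median log2 fold change, with Junb included, was -0.18. Jun stood at 6.81, 5.64 and 9.96 CPM in DMSO and at 4.84, 3.82 and 5.59 CPM in MB-3, with no overlap between groups, a log2 fold change of -0.65 ± 0.19 (SE, adjusted p = 0.228), -0.64 ± 0.10 with the letter as block (adjusted p = 8.66e-05, edgeR), and an adjusted p of 0.0491 by DESeq2. Atf3, a stress-induced factor of the same dimerizing class, had the largest difference, from 3.67, 1.79 and 6.46 CPM to 1.79, 1.12 and 2.49 CPM. DMSO B and MB-3 A shared the value of 1.79 CPM, and DMSO C stood far above the rest. The log2 fold change of Atf3 was -1.14 ± 0.37 (adjusted p = 0.274), and -1.09 ± 0.15 with the letter as block (adjusted p = 8.93e-06, edgeR).

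The other 3 genes followed the same order of libraries in DMSO, with C highest and B lowest. Fosl2 stood at 3.61, 2.13 and 6.31 CPM in DMSO and at 2.15, 1.66 and 2.59 CPM in MB-3, with log2 fold changes of -0.91 ± 0.31 and, with the block, -0.85 ± 0.15 (adjusted p = 0.283 and 0.000374, edgeR). Fos stood at 6.19, 3.31 and 7.8 CPM in DMSO and at 4.78, 2.96 and 3.31 CPM in MB-3, with log2 fold changes of -0.64 ± 0.26 and, with the block, -0.61 ± 0.14 (adjusted p = 0.377 and 0.0049, edgeR). Egr1 stood at 34.2, 30.5 and 36.5 CPM in DMSO and at 35.4, 23.9 and 22.7 CPM in MB-3, with log2 fold changes of -0.30 ± 0.13 and, with the block, -0.32 ± 0.08 (adjusted p = 0.437 and 0.00807, edgeR). MB-3 A was the exception for Egr1, above its own DMSO library. These values moved with single libraries. Without DMSO B, Jun, Atf3, Fosl2 and Fos passed in the main fit, with log2 fold changes of -0.82 (adjusted p = 0.0131), -1.50 (0.0053), -1.22 (0.00668) and -0.92 (0.00912). Without DMSO C, their values shrank to -0.39 (adjusted p = 0.669), -0.60 (0.747), -0.43 (0.761) and -0.36 (0.806). Egr1 was not called in the main fit with any library left out, with -0.18 without MB-3 C and -0.53 without MB-3 A. In the block fit, Jun, Atf3 and Fosl2 kept the call with each letter left out, Fos lost it without letter C (-0.28, adjusted p = 0.287), and Egr1 lost it without letter B (-0.31, adjusted p = 0.106) and without letter C (-0.14, adjusted p = 0.268).

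**Figure D4:**
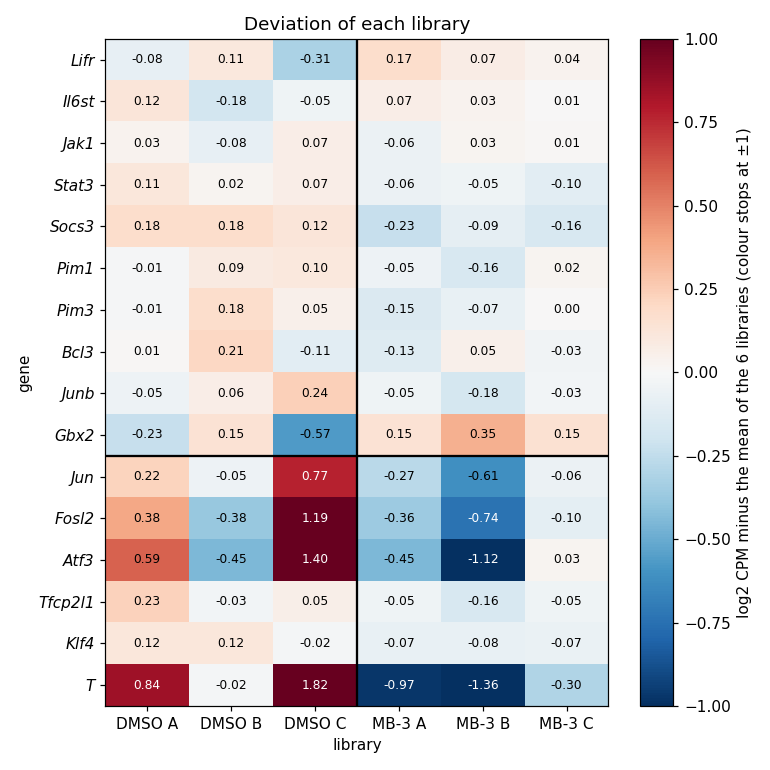
Log2 CPM of each library minus the mean of the 6 libraries, for the 10 members (above the line) and 6 further genes, with the value printed in each cell and the color scale ending at ±1. Gbx2 and Lifr are lowest in DMSO C (-0.57 and -0.31), where Jun, Fosl2, Atf3 and T are highest. Socs3 and Stat3 each have the same sign in all 3 libraries of a group.

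The DMSO libraries differed among themselves in mesendoderm markers, and the summed level of these was lower in each MB-3 library than in any DMSO library. The 6 mesendoderm markers summed to 25.2, 15.3 and 46.6 CPM in DMSO A, B and C and to 10.1, 7.97 and 13.6 CPM in MB-3. Their most abundant gene, T (Brachyury), stood at 16.5, 9.05 and 32.4 CPM in DMSO and at 4.68, 3.57 and 7.44 CPM in MB-3. Its log2 fold change was -1.89 ± 0.36 (SE, adjusted p = 0.0611, and 1.47e-14 with the letter as block, edgeR), and T was called in the main fit without DMSO B (-2.23, adjusted p = 0.000292) and without MB-3 C (-2.22, adjusted p = 0.0429). With any other library left out T was not called, and its value was smallest in size without DMSO C, at -1.29 (adjusted p = 0.13, edgeR). Of the 6 markers 4 were tested, of which the main fit called 0 (edgeR, 3 at an unadjusted p under 0.05, against 10.9% of all genes; DESeq2 called 1) and the block fit 3, all lower, against 3.9% of all genes called lower. Gbx2 and Lifr were lowest in DMSO C, the library with the most T, and highest among DMSO libraries in B, the one with the least T. These are bulk RNA samples, in which fewer cells of a type and less RNA per cell cannot be told apart, and the part of such cells in the differences of Gbx2, Lifr and the immediate early genes was not tested. Socs3 stood at 135, 135 and 130 CPM in the same DMSO libraries, and whether the marker difference has a part in its lower level under MB-3 was not tested either.

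Dnmt3b was the most abundant of the primed epiblast markers, and the markers of extraembryonic endoderm, trophoblast and fibroblasts were scarce. The 4 primed epiblast markers summed to 418 to 433 CPM in DMSO and 519 to 531 CPM in MB-3, mostly from Dnmt3b, a DNA methyltransferase, which rose from 341, 355 and 341 CPM to 425, 437 and 433 CPM (log2 fold change 0.32 ± 0.05, adjusted p = 0.0358, and 2.51e-06 with the letter as block, edgeR). Of the 6 fits with 1 library left out, 1 kept the call, that without DMSO B (adjusted p = 0.00628), and in the others the adjusted p ran from 0.0668 without MB-3 C to 0.226 without MB-3 A, with log2 fold changes from 0.31 to 0.34 over the 6 fits. The main fit called 1 of the 4, against 0.205% of all genes, and the block fit 3, against 7.12%, with Dnmt3b and Otx2 higher (3.22% of all genes) and Fgf5 lower (3.9%). DESeq2 called Dnmt3b and Otx2 (adjusted p = 2.73e-06 and 0.00184), against 1.11% of all genes it tested. Fgf5, a growth factor of the epiblast, stood at 7.99, 4.88 and 11.6 CPM in DMSO and at 4.52, 4.69 and 7.04 CPM in MB-3 (log2 fold change -0.59 ± 0.25, adjusted p = 0.401, and 0.0014 with the letter as block, edgeR), with C highest in both groups as for T. In the main fit Fgf5 was -0.25 without DMSO C (adjusted p = 0.847) and -0.86 without DMSO B (adjusted p = 0.0137). The 6 extraembryonic endoderm markers summed to 8.61 to 12.4 CPM in DMSO and 8.03 to 9.84 CPM in MB-3, most of it from Dab2. The 4 trophoblast markers, led by Cdx2, summed to 2.13 to 5.22 CPM in DMSO and 1.57 to 3.38 CPM in MB-3. The 8 fibroblast markers, led by Thy1, summed to 8.05 to 10.8 CPM in DMSO and 6.71 to 6.92 CPM in MB-3. The main fit called 0 of the 14 tested genes of these last 3 lists (edgeR, 4 at an unadjusted p under 0.05), against 0.205% and 10.9% of all genes. The block fit, which called 7.12% of all genes, called the fibroblast collagens Col1a1 (-1.32 ± 0.32 in the main fit, adjusted p = 0.00226 with the block) and Col1a2 (-1.27 ± 0.29, adjusted p = 0.00012 with the block), both lower at 0.25 to 2.2 CPM, and DESeq2 called Col1a2 (adjusted p = 0.0101). Without DMSO B the main fit called Col1a1 (adjusted p = 0.0184), Col1a2 (adjusted p = 0.00525) and Otx2 (adjusted p = 0.0209). The collagens, Otx2 and Fgf5 were named after their values were seen. In the 3 lists, 4 of 18 genes (Sox17, Elf5, Lum and Postn) were too low to test, Elf5 had 0 counts in all 3 MB-3 libraries, and the part of these cell types in the differences above was not tested.

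Among the 10 members, Gbx2 had the largest SD of log2 CPM over the 6 libraries, and the genes with the most similar pattern were sought among 10163 other tested genes with a mean of at least 10 CPM. The measure was the root mean square difference of log2 CPM, each gene centered on its mean over the 6 libraries. The 5 most alike were Tcf15 (0.055), Chst10 (0.094), Spry4 (0.099), Dcaf12l1 (0.104) and Epas1 (0.105). Tcf15, a basic helix-loop-helix factor, stood at 22.4, 29.8 and 19.3 CPM in DMSO and at 28.6, 34.5 and 28.1 CPM in MB-3, with B highest in both groups as for Gbx2. Spry4, a feedback inhibitor of receptor tyrosine kinase signaling, stood at 81.2, 94.6 and 61.3 CPM in DMSO and at 101, 99.6 and 90.2 CPM in MB-3. The points are 6 libraries in 2 treatments, so genes that differ between the treatments are alike for that reason in part.

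H3K9ac peaks could be tied to genes where the peak table of the study names one. That table was held in part, with its first 1999 DMSO peaks of 11724 and its first 1999 MB-3 peaks of 4673, and the positions below are on mm9, a build other than that of the RNA values. There is 1 list per treatment from merged duplicates, with no peak heights and no read depth, so the peaks are described without a test. Jak1, Bcl3 and Junb lie on chromosomes outside both parts. Gbx2 lies on chromosome 1, which both parts cover, and no peak was named for it. The remaining 6 members had a named peak.

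Over the stretch of the genome that the DMSO part covers, 12 DMSO peaks were named for 8 genes of the pathway, and 3 of the 12 were overlapped by an MB-3 peak by at least 1 bp, against 36.6% of the 1999 DMSO peaks there. The 3 were 2 of 3 Socs2 peaks and 1 of 2 Stat3 peaks. At Stat3 the DMSO peak of 587 bp at chr11:100800164-100800750 was met by an MB-3 peak of 388 bp, and the DMSO peak of 384 bp at chr11:100801319-100801702 had no MB-3 partner. The 9 peaks without a partner also included both Tfcp2l1 peaks (451 and 317 bp) and those of Lif (323 bp), Stat2 (326 bp), Socs7 (745 bp), Pias4 (685 bp) and Sbno2 (266 bp). None of these genes was called in the main RNA fit.

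The other members were named through the MB-3 part, which by construction holds peaks present under MB-3, so these are no evidence of retention, and their widths are what can be compared. At Socs3 an MB-3 peak of 619 bp at chr11:117829751-117830369 lay on a DMSO peak of 1715 bp. At Pim3 the DMSO peak of 3237 bp at chr15:88692911-88696147, the fifth widest of all 11724, held 2 separate MB-3 peaks of 820 and 445 bp. Pim1 had 351 bp on a DMSO peak of 1590 bp, and Il6st 308 bp on one of 1006 bp. Lifr had 2 MB-3 peaks, of 331 and 514 bp, that were wider than the DMSO peaks they overlapped, of 318 and 399 bp. Those 2 DMSO peaks ranked 9957 and 8147 of 11724 by width. The DMSO peaks of Socs3, Pim1 and Il6st ranked 266, 345 and 1491. Among all 4491 MB-3 peaks that lay on exactly 1 DMSO peak, 5.57% were wider than it, and the median width ratio was 0.573. That share covers DMSO peaks of all widths, and the share among narrow ones was not computed. The width of a called peak depends on read depth as well as on acetylation, and the 2 cannot be told apart here.

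**Figure D5:**
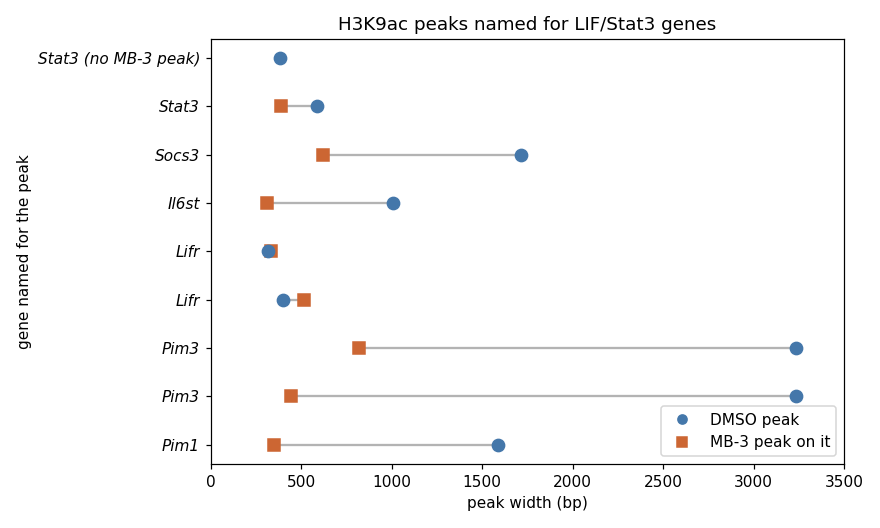
Width in bp (axis from 0) of the H3K9ac peaks named for members, with the DMSO peak as a circle and the MB-3 peak on it as a square, 1 row per pair. The Pim3 rows share 1 DMSO peak of 3237 bp, the first Stat3 row has no MB-3 peak, and the 2 Lifr rows are those in which the MB-3 peak is the wider.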

How the data were processed

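RNA-seq and H3K9ac data of TNGA cells were grouped by the sample labels. For RNA-seq, the authors mapped reads to mm10 (Bowtie) and deposited raw exonic counts per gene. Of 30677 genes, 137 had no symbol in GENCODE M21 (GRCm38), and 0 columns were left unused. For ChIP-seq, the authors merged duplicates aligned to mm9, called peaks with MACS2 and deposited positions; starts were raised by 1 to count from 1.

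Counts were filtered with filterByExpr (20027 genes), normalized by TMM and fitted with edgeR 4.0.16 (R 4.3.3, glmQLFit and glmQLFTest) with treatment alone in the model. Benjamini-Hochberg adjustment ran over all tested genes, with 0.05 as threshold. The fit was checked on simulated data. No pair of libraries of the same treatment agreed within sampling noise (chi-square per gene 8.39 to 17.1). Alternatives used RLE or upper-quartile scaling, other filters, DESeq2 1.42.0, limma-voom (3.58.1), edgeR's robust option, the replicate block and left-out libraries. Spread used log2(CPM + 0.1). Motifs and peaks were read in Python 3.11.15, with sequence from RefSeq and GENCODE M21 on GRCm38.

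The members and lists were chosen with earlier results of these data known. Genes named were the 10 members, Lif, Jak2, Klf4, Klf5, Tfcp2l1, Myc, Fos and Egr1, pathway or immediate early genes called in either fit, ES cell markers, the most abundant gene of each marker list, and the 5 genes most like the most variable member. 1 listed gene is not reported here.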

Additional observations from a re-analysis of the deposited data

How the results depend on the processing

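The replicate letters were checked as pairs by the correlation of deviations from the group means. It was 0.098 for A, 0.261 for B and 0.213 for C, and as A was not above 0.1 the letters were not taken as pairs, although every library correlated best with its own letter. The member count of 1 became 4 with the replicate block and 0 with limma-voom, and ranged from 0 to 3 with libraries or letters left out. The count of 0 among other pathway genes became 6 with the replicate block and ranged from 0 to 4 in the fits with libraries or letters left out. The count of 41 over all genes became 1425 with the replicate block, 192 with DESeq2, 194 with no filter on low counts, 66 with the robust option, 25 with upper-quartile scaling, 24 with at least 1 CPM in 3 libraries and 18 with limma-voom, and ranged from 0 to 1037 with libraries or letters left out. Socs3 kept its sign in all 17 alternatives.

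Among the 10 members and 14 further pathway and immediate early genes recomputed under every alternative, signs turned for 4, all in fits that left out a library or a letter: the log2 fold change ranged from -0.01 to 0.15 for Il6st, -0.08 to 0.03 for Jak1, -0.15 to 0.01 for Bcl3 and -0.03 to 0.08 for Klf5. Among the other genes named, checked in those fits only, signs turned as well, as for Cdx2 (-0.47, and 0.13 without DMSO C), Dab2 (-0.19, and 0.01 without DMSO C), Thy1 (-0.11, and 0.03 without MB-3 C) and Pou5f1 (0.01, and -0.04 without MB-3 B). Named pathway peaks kept under MB-3 numbered 5 when a peak within 1000 bp sufficed, and 3 under the other rules. Per kilobase of the longest transcript, the DMSO level was 12.6 CPM for Il6st, 7.57 for Jak1, 13.1 for Stat3, 52.3 for Socs3, 47.2 for Pim1, 18.4 for Bcl3 and 15.4 for Junb, which placed Stat3 above Il6st and Jak1 above Gbx2. The promoter count of 1 member became 0 with TTCCNGGAA at RefSeq starts and was 1 with either motif at GENCODE starts, an alternative chosen after seeing the data. The causes of these shifts were not tested. At this depth, 1 CPM corresponds to 42.9 to 50.2 reads. Atf3, at 1.12 to 6.46 CPM, had a standard error of 0.37 on the log2 scale, which was 0.15 with the replicate block at the same depth.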
